A study of Mus musculus with 8 samples.

Results

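Dermatopontin and the small leucine-rich proteoglycans were examined in mouse microvascular endothelial cells with and without LRP1, as 9 of the 22520 genes in the deposited RNA sequencing table. They were Dpt, which encodes dermatopontin, and the proteoglycan genes Dcn, Lum, Bgn, Fmod, Ogn, Prelp, Aspn and Podn, found by their gene symbols. The group was selected because Dpt was among the genes with the largest falls in LRP1 knockout cells, so the change of Dpt is given below as a description, with no test. The other 8 genes entered as relatives and partners of Dpt. RNA was sequenced in 4 libraries of LRP1 knockout cells (LRP1 KO) and 4 of wild-type cells (WT), each labelled as pooled from the heart, liver and lung. The mice were C57BL/6 and 14 days old (postnatal day 14). According to the study's methods, the LRP1 KO animals were LRP1 f/f; Cdh5-CreER+/-, their littermate controls were LRP1 f/f; Cdh5-CreER-/-, and bead-bound PECAM-1 antibody was used to capture the cells. Both groups thus carried the floxed Lrp1 allele, and they differed in the Cdh5-driven Cre recombinase, an inducible form whose promoter is active in endothelial cells. When the recombinase was induced in these animals, and whether each library came from separate animals, is not given in the sources used here, so that p-values measure only the spread between these libraries.

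Small leucine-rich proteoglycans are secreted proteins built on a curved scaffold of leucine-rich repeats, most of which carry sugar chains, and they bind fibrillar collagens and set the width and spacing of collagen fibrils. Dermatopontin is a small tyrosine-rich matrix protein that is not of this family but binds decorin and fibronectin and takes part in collagen fibril assembly. In heart, liver and lung these proteins are mainly known as products of fibroblasts and other stromal cells rather than of endothelium, while LRP1 is an endocytic receptor reported to take up decorin.

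Values are quantile-normalized FPKM, a level per length of transcript, so levels may be compared between genes, and changes are differences in the mean of log2(FPKM + 1), LRP1 KO minus WT. The library sums ran from 503571 to 504112, and the depth is unknown, so the precision of a value rests on the 4 libraries of its group. Lrp1 ranged over 103 to 140 FPKM in WT, against 2.79 to 7.72 FPKM in LRP1 KO. On the first principal component of all tested genes, with 60.8% of the variance, the WT libraries fell at -24.1 to -12.9 and LRP1 KO libraries 1 to 3 at 17.2 to 27.3, while LRP1 KO library 4 stood apart from both at 0.102. Results are therefore given with and without this library. Of 15 endothelial markers all were above 0 in every library, but Pecam1, the selection marker, ranged over 6.80 to 8.76 FPKM in WT, and the LRP1 KO libraries gave 36.3, 18.5, 26.2 and 6.72 FPKM. Dcn was at 579 to 1227 FPKM in the same libraries and the mesothelial marker Msln at 911 to 1272 FPKM, levels far above those of the markers that define the labelled cell type. In such bulk samples, fewer cells of a type and less RNA per cell cannot be told apart.

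All 9 genes were detected at 1 FPKM or more in all 8 libraries and all passed the filter on low values. Biglycan (Bgn) and decorin (Dcn) made up 93.5% to 96.6% of the summed FPKM of the 9 genes in every library. Bgn held ranks 14 to 24 among all genes and Dcn ranks 40 to 144. Prelp, Dpt, Lum and Ogn followed with WT means of 67.1, 35.2, 31.1 and 29.6 FPKM, and the WT ranges of these 4 neighbors in the order of levels overlapped. Podn at 9.97 ± 4.05 FPKM (SD, n = 4) and Fmod at 9.31 ± 1.86 FPKM (SD, n = 4) likewise overlapped each other in WT, and Aspn was lowest at 1.83 ± 0.394 FPKM (SD, n = 4), below all of them. In LRP1 KO the sum of the 9 genes was 2650 ± 358 FPKM (SD, n = 4), against 3259 ± 473 FPKM (SD, n = 4) in WT, and the ranges of the groups overlapped.

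**Figure D1:**
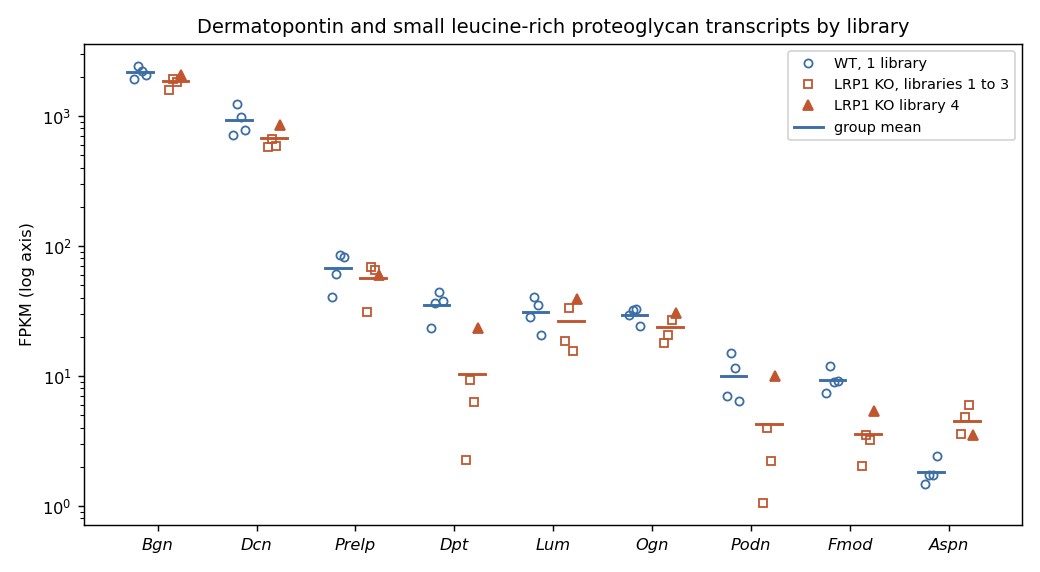
FPKM of the 9 genes in each library on a log axis, with WT as circles, LRP1 KO libraries 1 to 3 as squares, LRP1 KO library 4 as a triangle and group means as bars. Dpt, Fmod and Aspn were the 3 genes whose groups did not overlap, with Dpt and Fmod lower and Aspn higher in LRP1 KO.

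Dpt and Fmod were lower and Aspn was higher in LRP1 KO, whereas Bgn and Dcn, by far the most abundant, did not pass the test. In all, 8 of the 9 genes had a lower estimate in LRP1 KO. Of the 8 genes other than Dpt, 1 passed a limma adjusted p of 0.05 as lower (Fmod), against 7.31% of the 11389 tested genes, and 1 passed as higher (Aspn), against 6.27%. Fmod passed with a fall of at least 2-fold on the log2 scale, and 0.500% of tested genes both passed and fell by that much. Podn also fell by more than 2-fold (-1.26) but did not pass. Aspn was just under this limit (0.94), and 1.12% of tested genes both passed and rose by at least 2-fold. With a pseudocount of 0.1 the rise of Aspn was past the limit (1.23). The groups did not overlap for 2 genes that were lower and 1 that was higher, where the shares of all tested genes were 10.7% and 8.84%. Since the group was selected on this comparison, nothing is read from these counts against the shares. The median change was -0.32 over the 9 genes, -0.30 without Dpt and -0.01 over all tested genes. Over the fits that left out 1 library, the median of the 9 genes ran from -0.49 (without LRP1 KO library 4) to -0.20 (without LRP1 KO library 1).

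Dermatopontin showed the largest change of the group. Dpt (ENSMUSG00000026574, chromosome 1, plus strand, 164796644 to 164824266 in GRCm38) gave 23.4, 36.2, 43.9 and 37.4 FPKM across the WT libraries (1 to 4, in this order throughout) against 2.26, 9.30, 6.24 and 23.4 FPKM across the LRP1 KO libraries. The groups barely missed each other, with WT library 1 at 23.42 FPKM and LRP1 KO library 4 at 23.36 FPKM, whereas LRP1 KO libraries 1 to 3 were at or below 9.30 FPKM. The mean was 35.2 ± 8.58 FPKM (SD, n = 4) in WT and 10.3 ± 9.18 FPKM (SD, n = 4) in LRP1 KO, which leaves 29.2% of the WT level. It was 16.8% of the WT mean in LRP1 KO libraries 1 to 3 and 66.3% in library 4. On the log2 scale the difference was -2.01 (SE 0.51) with all libraries and -2.50 (SE 0.36) without LRP1 KO library 4.

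Dcn and Lum encode decorin and lumican, which bind the surface of collagen fibrils and limit their lateral growth, and they lie close together on chromosome 10. Dcn (ENSMUSG00000019929, plus strand, 97479609 to 97518143) gave 711, 1227, 973 and 777 FPKM across the WT libraries against 579, 658, 587 and 856 FPKM across the LRP1 KO libraries. LRP1 KO libraries 1 to 3 were below every WT library and library 4 was inside the WT range. The mean was 922 ± 232 FPKM (SD, n = 4) in WT and 670 ± 129 FPKM (SD, n = 4) in LRP1 KO, a log2 difference of -0.45 (SE 0.18, 95% interval -0.85 to -0.04) that missed the threshold (limma adjusted p = 0.122). Without LRP1 KO library 4 it was -0.57 (limma adjusted p = 0.0384). Lum (ENSMUSG00000036446, plus strand, 97565128 to 97572703) gave 28.3, 40.3, 35.2 and 20.8 FPKM across the WT libraries against 18.4, 32.9, 15.5 and 39.2 FPKM across the LRP1 KO libraries. Its groups overlapped, although LRP1 KO libraries 1 and 3 were below every WT library. The log2 difference of Lum was -0.28 (SE 0.30, 95% interval -0.95 to 0.39, limma adjusted p = 0.541). The difference of Lum was -0.49 without LRP1 KO library 4 and shrank to -0.07 without LRP1 KO library 3.

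Bgn and Aspn encode biglycan and asporin, the closest relatives of decorin. Bgn (ENSMUSG00000031375, chromosome X, plus strand, 73483602 to 73495933), a chondroitin or dermatan sulfate proteoglycan that also signals through Toll-like receptors when released from matrix, gave 1905, 2421, 2208 and 2075 FPKM across the WT libraries against 1589, 1905, 1833 and 2075 FPKM across the LRP1 KO libraries. The LRP1 KO mean of 1851 ± 202 FPKM (SD, n = 4) was 86.0% of the WT mean of 2153 ± 218 FPKM (SD, n = 4), and the groups overlapped. The log2 difference was -0.22 (SE 0.10, 95% interval -0.45 to 0.01, limma adjusted p = 0.161), and it did not pass without LRP1 KO library 4 either (limma adjusted p = 0.0678). Aspn (ENSMUSG00000021388, chromosome 13, plus strand, 49544443 to 49567565), whose product has a run of aspartate in place of the sugar attachment site and binds TGF-β1 and collagen, gave 1.48, 1.72, 1.74 and 2.40 FPKM across the WT libraries against 3.58, 4.86, 5.99 and 3.52 FPKM across the LRP1 KO libraries. No WT library reached the lowest LRP1 KO library. The mean rose from 1.83 ± 0.394 to 4.49 ± 1.18 FPKM (SD, n = 4), or 2.45-fold. On the log2 scale the rise was 0.94 (SE 0.16, 95% interval 0.59 to 1.29, limma adjusted p = 0.00847), and it was 1.02 without LRP1 KO library 4 (limma adjusted p = 0.00281).

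Fmod and Prelp lie in a cluster of family genes on chromosome 1 and encode fibromodulin and prolargin, of the class of the family that holds the keratan sulfate proteoglycans. Fmod (ENSMUSG00000041559, plus strand, 134037254 to 134048277), a collagen-binding protein that also recruits lysyl oxidase to fibrils, gave 7.37, 11.9, 8.94 and 9.08 FPKM across the WT libraries against 2.02, 3.53, 3.23 and 5.37 FPKM across the LRP1 KO libraries. All LRP1 KO libraries were below all WT libraries, library 4 included. The mean fell from 9.31 ± 1.86 to 3.54 ± 1.39 FPKM (SD, n = 4), to 38.0% of the WT mean. Fmod fell by 1.22 on the log2 scale (SE 0.21, 95% interval -1.70 to -0.74, limma adjusted p = 0.00978), and by 1.40 without LRP1 KO library 4 (limma adjusted p = 0.00114). Prelp (ENSMUSG00000041577, minus strand, 133910304 to 133921414), whose product links basement membrane to collagen, gave 40.5, 60.7, 85.5 and 81.5 FPKM across the WT libraries against 31.0, 69.2, 65.6 and 59.7 FPKM across the LRP1 KO libraries. The groups overlapped, with a log2 difference of -0.25 (SE 0.29, 95% interval -0.91 to 0.40, limma adjusted p = 0.573). That estimate rested on LRP1 KO library 1, without which it was 0.00689, and it was -0.30 without library 4.

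Ogn and Podn encode osteoglycin and podocan, from the more distant classes of the family. Ogn (ENSMUSG00000021390, chromosome 13, plus strand, 49608046 to 49624501), also called mimecan, gave 29.6, 31.8, 32.9 and 24.2 FPKM across the WT libraries against 17.8, 20.4, 26.6 and 30.3 FPKM across the LRP1 KO libraries. The groups overlapped and the log2 difference of -0.32 (SE 0.16, limma adjusted p = 0.188) did not pass, nor did that of -0.45 without LRP1 KO library 4 or of -0.20 without LRP1 KO library 1. Podn (ENSMUSG00000028600, chromosome 4, minus strand, 108014791 to 108096445), a collagen-binding protein that restrains smooth muscle growth, gave 6.95, 15.0, 11.4 and 6.45 FPKM across the WT libraries against 1.05, 3.99, 2.21 and 9.90 FPKM across the LRP1 KO libraries. LRP1 KO libraries 1 to 3 were below all WT libraries, at 24.3% of the WT mean, and library 4 was at 99.3% of it. The log2 difference was -1.26 (SE 0.47, 95% interval -2.31 to -0.21, limma adjusted p = 0.0959) with all libraries and -1.70 without library 4 (limma adjusted p = 0.00830).

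**Figure D2:**
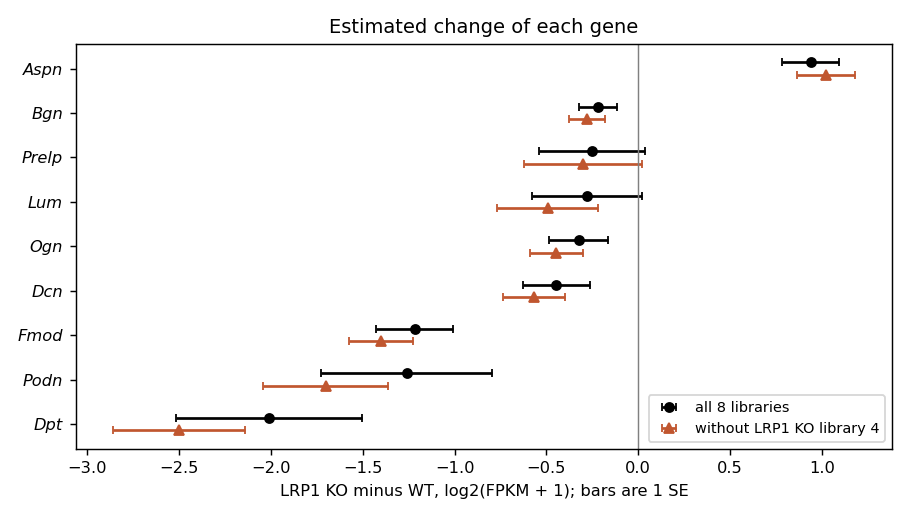
Difference in mean log2(FPKM + 1), LRP1 KO minus WT, for each gene, with bars of 1 SE, for all 8 libraries (circles) and without LRP1 KO library 4 (triangles). Leaving out this library moved Dpt from -2.01 to -2.50 and Podn from -1.26 to -1.70, and Aspn stayed the 1 gene above 0.

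LRP1 KO library 4 was the highest LRP1 KO library for 7 of the 8 genes with a lower estimate, Prelp being the exception, and library 1 was the lowest for 7 of them, Lum being the exception. Without library 4, 3 of the 8 genes other than Dpt were past the threshold as lower (Dcn, Fmod and Podn) and 1 as higher (Aspn). The counts over all genes grew as well, to 13.9% lower and 12.6% higher of the tested genes. Lrp1 itself was at 7.72 FPKM in library 4, the highest of the LRP1 KO libraries but far below the lowest WT library.

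Ratios between genes within a library differed between the groups for some pairs and overlapped for others. The ratio of Dpt to Dcn was 0.0295 to 0.0481 in WT and 0.00390 to 0.0273 in LRP1 KO, so that the groups did not overlap. The ratio of Fmod to Prelp, of the same cluster, was 0.104 to 0.195 in WT and 0.0492 to 0.0900 in LRP1 KO. That of Aspn to Ogn was 0.05001 to 0.0991 in WT and 0.116 to 0.238 in LRP1 KO. By contrast the ratio of Lum to Dcn overlapped, with 0.0267 to 0.0398 in WT and 0.0265 to 0.05003 in LRP1 KO. The ratio of Podn to Dpt was 0.173 to 0.415 in WT and 0.354 to 0.465 in LRP1 KO, which also overlapped. These ratios are descriptions, as Dpt was selected on its fall.

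Of the 9 genes, 6 sit in clusters of related genes, and in each cluster the genes differed widely in level. On chromosome 10 Dcn and Lum were expressed while Kera (keratocan) was listed at 0 in all libraries and Epyc (epiphycan) reached up to 0.170 FPKM. On chromosome 1 Prelp and Fmod stood next to Optc (opticin), at 0.439 to 0.665 FPKM in WT against 0.262 to 0.427 FPKM in LRP1 KO. On chromosome 13, within 119.7 kb, Aspn rose while Ogn gave a lower estimate that did not pass, and Omd (osteomodulin) and Ecm2 between and beside them were at or below 0.714 FPKM. Dpt, Bgn and Podn have no other listed family gene within a cluster.

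**Figure D3:**
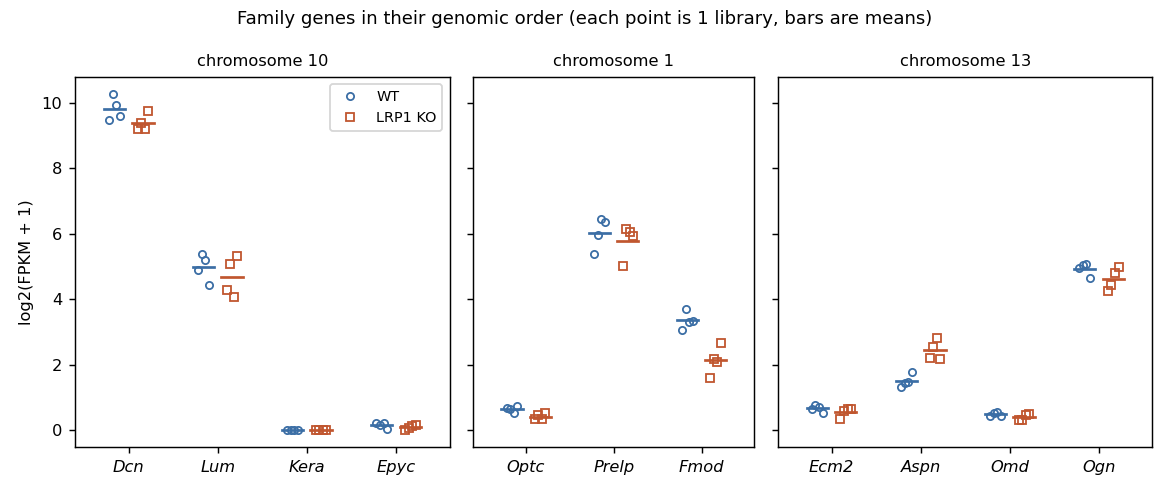
Expression as log2(FPKM + 1) of the family genes in the 3 clusters, in genomic order, with WT as circles, LRP1 KO as squares and means as bars. Aspn was higher and Fmod lower in LRP1 KO, and the flanking genes Kera, Epyc, Optc, Ecm2 and Omd were all below 1 FPKM.

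The promoters of Dpt, Fmod and Aspn, the 3 genes whose groups did not overlap, are shown from RefSeq (GRCm38.p6, plus strand, 5′ to 3′), as the bases that end just before the gene. Capitals mark matches to TATAAA, the core of a TATA box, on either strand.
Dpt chr1:164796413-164796643: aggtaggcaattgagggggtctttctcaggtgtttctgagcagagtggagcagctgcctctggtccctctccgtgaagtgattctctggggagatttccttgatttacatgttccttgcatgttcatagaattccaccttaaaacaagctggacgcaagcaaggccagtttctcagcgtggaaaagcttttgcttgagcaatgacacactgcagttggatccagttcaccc
Fmod chr1:134037004-134037253: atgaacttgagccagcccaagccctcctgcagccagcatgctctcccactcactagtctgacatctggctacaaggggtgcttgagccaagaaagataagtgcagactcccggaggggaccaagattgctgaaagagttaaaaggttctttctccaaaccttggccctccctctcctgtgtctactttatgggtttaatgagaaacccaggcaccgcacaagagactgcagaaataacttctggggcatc
Aspn chr13:49544193-49544442: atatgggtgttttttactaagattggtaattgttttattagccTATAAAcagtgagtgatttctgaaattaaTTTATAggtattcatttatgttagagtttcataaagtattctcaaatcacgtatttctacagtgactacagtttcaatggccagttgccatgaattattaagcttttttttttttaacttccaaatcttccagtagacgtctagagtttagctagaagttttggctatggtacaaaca

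In these windows TATAAA matched at 2 places in the Aspn promoter, beginning 207 and 178 bases before the start, and at none in Dpt or Fmod, while 12.4% of the 32851 promoters in the table hold it within 250 bases. The AP-1 core TGANTCA (held by 6.75% of promoters) and the forkhead core GTAAACA (3.17%) were not matched in any of the 7 of 9 genes found in the table, and among the others TATAAA was matched in Ogn, at 2 overlapping places. The Aspn promoter had a GC content of 30%, against 48.9% for Dpt, 51.2% for Fmod and a median of 52.4% over all promoters. Dcn and Lum had no promoter in the table. A match is a description of the letters and not a binding site.

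The genes whose profile over the 8 libraries was most like that of Dpt were Sparcl1, Hp, Mfap4, Ear2 and Cxcl13. Likeness was the root mean square difference between log2(FPKM + 1) profiles, each centred on its own mean, and it was 0.38 to 0.45 for these 5, against a median of 1.27 over tested genes. Sparcl1, a matrix glycoprotein related to SPARC, was at 45.0 to 96.8 FPKM in WT against 3.42 to 65.4 FPKM in LRP1 KO. Mfap4, an elastic fiber protein, was at 4.08 to 9.84 FPKM in WT against 0.362 to 7.001 FPKM in LRP1 KO. Within the group, Podn ranked 7 among all tested genes (0.50) and Fmod ranked 28 (0.64), while Dcn, Lum, Bgn, Ogn and Prelp differed from Dpt by 1.004 to 1.12 and Aspn by 1.68, the farthest of the group. For Dcn the 5 most alike were Fmo5, Naglu, Plekhf1, Ptgir and Ccng2 at 0.09 to 0.10, and its nearest relative was Bgn at 0.20. The measure grows with the spread of the target itself, and its median over tested genes was 0.37 for Dcn, so distances to Dcn and to Dpt are not on 1 footing. The same 5 genes came first without LRP1 KO library 4, for Dpt and for Dcn. The libraries, and so their depth and cell mixture, are shared by all of these profiles.

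**Figure D4:**
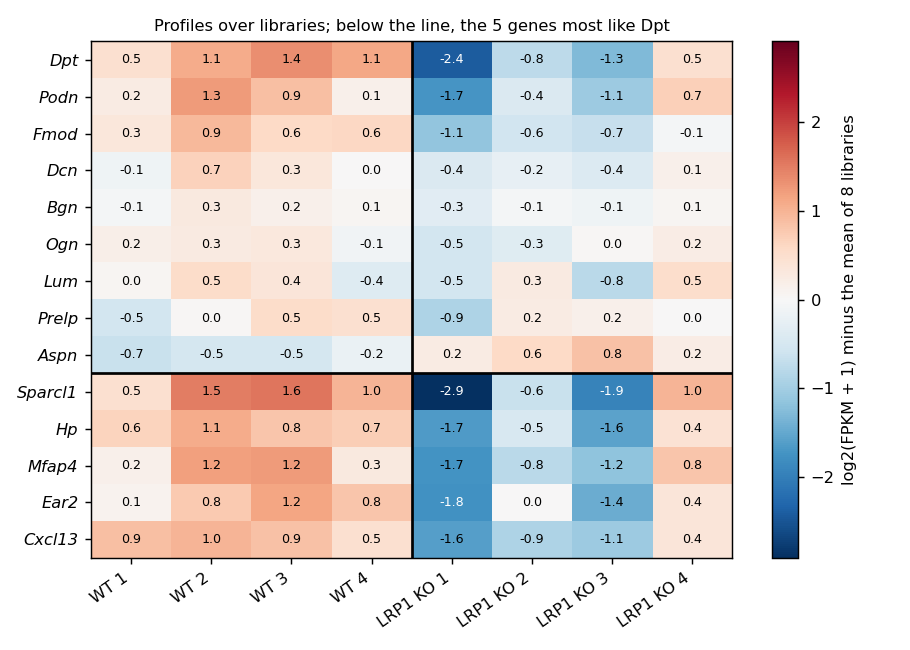
Each cell gives log2(FPKM + 1) of a gene in a library minus its mean over the 8 libraries, for the 9 genes and, below the line, for the 5 genes most like Dpt. Dpt, Podn and the 5 genes below the line are below their mean in LRP1 KO libraries 1 and 3 and above it in library 4, and Aspn is below its mean in all WT libraries and above it in all LRP1 KO libraries.

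The proteins that work with this family were examined in 5 lists, chosen for their roles. Among 10 other genes of the family, 8 were below 1 FPKM in every library and were not tested, and neither Chadl nor Tsku passed. Tsku (tsukushi), at 21.2 to 31.1 FPKM in WT against 33.7 to 36.4 FPKM in LRP1 KO, gave a limma adjusted p of 0.0616. Of 17 collagens and fibril partners, 2 passed as lower and 0 as higher, with a median change of 0.02. Tnxb, tenascin-X, fell by 0.54 on the log2 scale (limma adjusted p = 0.0327) and Mfap2, a microfibril protein, fell by 1.39 (limma adjusted p = 0.0459), with LRP1 KO library 4 at 23.9 FPKM inside the WT range. With all libraries the collagens that bind decorin were not past the threshold, with Col1a1 at 499 ± 72.5 FPKM in WT against 470.03 ± 82.2 FPKM in LRP1 KO (SD, n = 4). Without LRP1 KO library 4, Col1a2 passed as lower, by 0.41 on the log2 scale (limma adjusted p = 0.0313). It was at 726 to 973 FPKM in WT, against 576, 711, 704 and 955 FPKM across the LRP1 KO libraries. Fn1, the fibronectin gene, averaged 501 FPKM in WT against 523 FPKM in LRP1 KO.

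Of 22 tested enzymes that build the sugar chains, 1 passed as higher and 1 as lower, with a median change of 0.07. Fam20b, the kinase that phosphorylates the linker xylose, rose by 0.26 on the log2 scale (limma adjusted p = 0.0286), and B4galt4, a galactosyltransferase of keratan sulfate synthesis, fell by 0.54 (limma adjusted p = 0.0335). Of 10 tested proteases that trim or cleave the core proteins, 3 passed as higher and 0 as lower, with a median of 0.05. Bmp1 and Tll1 encode tolloid proteases that remove propeptides of biglycan and procollagens. Bmp1 rose from 60.3 ± 2.38 to 76.9 ± 6.32 FPKM (SD, n = 4; limma adjusted p = 0.0138), and Tll1 from 4.05 ± 1.87 to 12.3 ± 4.84 FPKM (SD, n = 4; limma adjusted p = 0.0279). Mmp13, a collagenase, rose from 3.46 ± 1.06 to 7.59 ± 1.58 FPKM (SD, n = 4; limma adjusted p = 0.0153). For these 3 genes the groups did not overlap, as for 8.84% of all tested genes as higher. For Tll1 the gap was narrow, with WT library 4 at 6.43 FPKM and LRP1 KO library 4 at 6.45 FPKM.

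Of 21 tested growth factors and receptors of the family, 3 passed as higher and 2 as lower, with a median of -0.03. The lower genes were Lrp1 itself, a decorin receptor, and Met. The fall of Lrp1 was set by the knockout and is not a finding of this list. Met, a receptor tyrosine kinase bound by decorin, fell by 0.40 on the log2 scale (limma adjusted p = 0.0462). Tgfb2, a ligand held by these proteoglycans, rose by 0.63 (limma adjusted p = 0.0340). Wisp1, whose product binds decorin and biglycan, rose by 0.54 (limma adjusted p = 0.0279). Cd44, a biglycan and hyaluronan receptor, rose by 1.08 (limma adjusted p = 0.0170). Egfr and Tlr4, further receptors of decorin and biglycan, gave log2 differences of -0.38 and 0.03 that did not pass. Without LRP1 KO library 4, 6 genes of this list passed in each direction, with Lrp1 among the lower. The lower counts of the fibril partners, enzymes and proteases became 3, 2 and 3. In that fit 13.9% of all tested genes passed as lower and 12.6% as higher, so nothing is read from the growth of these counts. Bmp1, Mmp13 and Lrp1 passed in all 8 fits that left out 1 library, Cd44 in 7, Wisp1 in 3, Tnxb, Fam20b and Tll1 in 2 each, and Mfap2, B4galt4, Tgfb2 and Met in 1 each. With the mean of the fibroblast markers as a covariate, Lrp1 was the 1 gene of these lists past the threshold, and the limma adjusted p was 0.0573 for Bmp1, 0.295 for Mmp13, 0.316 for Cd44, 0.188 for Wisp1 and 0.437 for Tll1. The log2 differences did not shrink for Bmp1 (0.42, against 0.34 without the covariate) or Wisp1 (0.62 against 0.54). They were smaller for Cd44 (0.75 against 1.08), Mmp13 (0.60 against 0.96) and Tll1 (0.80 against 1.39).

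Markers of several cell types moved between the groups beside these genes. Of 16 tested fibroblast markers, none a member of the group, 5 passed as lower (Pdgfra, Thy1, Scara5, Gsn and Htra3) and 1 as higher (Fbln2), with a median of -0.50. The lower count was 10 without LRP1 KO library 4 but 1 to 3 in the other 7 fits that left out 1 library, of which it was 1 without WT library 2, 3 or 4 or LRP1 KO library 2 or 3. Fbln2 passed in all 8 of these fits, Scara5 in 7, Htra3 in 3, Thy1 and Gsn in 2 each and Pdgfra in 1. The mean log2(FPKM + 1) of these markers was 4.85 to 5.12 in WT and 4.05, 4.72, 4.497 and 4.96 in the LRP1 KO libraries, which is the order of Dpt in the LRP1 KO libraries. Their summed FPKM overlapped, at 1634 to 2075 in WT and 1561 to 2062 in LRP1 KO. Pdgfra, a defining fibroblast receptor, ranged over 37.4 to 50.9 FPKM in WT, and the LRP1 KO libraries gave 14.2, 23.2, 18.04 and 37.7 FPKM. That marker mean includes Mfap4, which is among the genes most like Dpt, so part of the shrinkage of Dpt with it as a covariate is built in. With that marker mean as a covariate, the differences were -0.55 for Dpt, -0.66 for Fmod (limma adjusted p = 0.0688), -0.07 for Podn and 1.01 for Aspn (limma adjusted p = 0.0825), and none of the 8 genes beside Dpt passed. The estimates of Lum, Bgn and Prelp turned above 0 in that fit, to 0.28, 0.00275 and 0.39. With the covariate 0.202% of all tested genes passed as lower and 1.26% as higher, and the covariate itself was lower in 3 of the 4 LRP1 KO libraries than in any WT library, so that its part in these results cannot be told apart from the knockout.

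Of 9 tested macrophage markers 8 passed as higher (Cd68, Adgre1, Csf1r, Lyz2, C1qb, C1qc, Mrc1 and Ctss), with a summed FPKM of the list of 41.3 to 82.4 in WT and 211 to 534 in LRP1 KO. Mural markers passed as higher for 4 of 8 (Acta2, Tagln, Des and Cnn1), with sums of 670 to 836 FPKM in WT against 1040 to 1627 FPKM in LRP1 KO. Acta2 and Tagln averaged 360 and 298 FPKM in WT against 711 and 549 FPKM in LRP1 KO, so these sums are mostly theirs. Pdgfrb, a pericyte marker, went the other way without passing (-0.31), and Rgs5, Kcnj8 and Abcc9 were too low to be tested. With the mean of the fibroblast markers as a covariate, Cnn1 still passed, while Acta2, Tagln and Des did not. Acta2, Tagln and Des then differed by 0.55, 0.58 and 0.37 on the log2 scale, against 0.95, 0.88 and 0.51 without it. Of 15 endothelial markers 1 passed as higher with all libraries (Eng), 13 without LRP1 KO library 4 and 0 in each of the other 7 fits that left out 1 library. The endothelial sum was 175 to 190 FPKM in WT and 623, 397, 462 and 181 FPKM across the LRP1 KO libraries, which is the reverse of the order of Dpt and Podn. Of 5 mesothelial markers 2 passed as lower (Msln and Upk3b), with sums of 2255 to 2599 FPKM in WT against 1959 to 2206 FPKM in LRP1 KO. Leaving out 1 library gave 1 lower mesothelial marker in 7 fits and 4 without LRP1 KO library 4, and Upk3b passed in all 8 fits but Msln in 1. Of 8 tendon and cartilage markers 3 were tested and 1 passed as higher (Col11a1, 29.1 to 50.1 FPKM in WT against 62.6 to 85.2 FPKM in LRP1 KO), with a summed FPKM of the list of 33.4 to 55.2 in WT against 68.6 to 92.7 in LRP1 KO. The transcription factors Sox9, at 2.81 to 5.76 FPKM over all libraries, and Scx, at 0.613 to 1.17 FPKM, did not pass, and Tnmd, Mkx, Comp, Acan and Col2a1 were at or below 0.432 FPKM in all libraries. The 1 tested stellate cell marker, Ecm1 at 202 to 257 FPKM over all libraries, did not pass, and Reln and Hgf were at or below 0.476 FPKM. Of 2 tested parenchymal markers 1 passed as lower (Scgb1a1). With the same covariate, Fbln2, Eng, Csf1r, Msln, Upk3b, Col11a1, Scgb1a1 and the 5 lower fibroblast markers did not pass, while Serpinf1 passed as higher. The differences were 0.61 for Fbln2, 0.51 for Eng, 0.43 for Csf1r, -0.28 for Msln, -0.54 for Upk3b, 0.89 for Col11a1 and -0.97 for Scgb1a1. Without it they were 0.65, 0.94, 0.37, -0.26, -0.55, 0.88 and -0.85. The part of these cell types in the changes of Dpt, Fmod and Aspn was not tested.

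**Figure D5:**
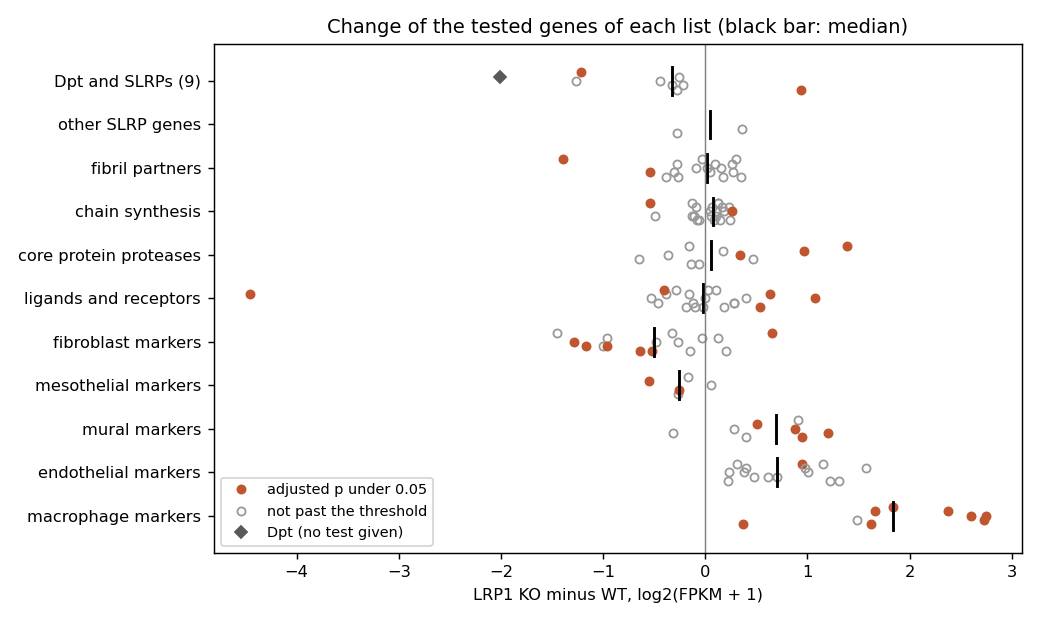
Log2 difference, LRP1 KO minus WT, of each tested gene in the 9-gene group, the 5 partner lists and the main marker lists, with filled points past a limma adjusted p of 0.05, open points not past it, a diamond for Dpt, for which no test is given, and black bars for medians. The partner lists centre on 0, with medians of -0.03 to 0.07, and the fibroblast markers have a median of -0.50.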

How the data were processed

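RNA was extracted from microvascular cells of heart, liver and lung and sequenced in 8 libraries, with groups taken from the sample titles. The submitters' processing notes name TopHat2, Cufflinks and mm10, without roles, whereas the study's methods describe trimming, STAR, featureCounts and a count test, and its results describe liver cells apart from heart and lung cells. The deposited table holds 1 value per gene and library that is not a whole number, and its columns share their sum (almost) and their maximum. The values deposited by the authors were therefore taken as FPKM, quantile normalized across libraries, and the unit is inferred. This step removes depth, so no counts could be recovered, and it can give the same value to a gene in several libraries, as for Bgn. It also hides a difference in total RNA.

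Expression was analysed as log2(FPKM + 1), which understates the change of low genes. Genes of at least 1 FPKM in at least 4 libraries were tested (11389 of 22520, and 4494 genes were listed at 0 throughout). The groups were compared over all 8 libraries in limma (version 3.58.1, R 4.3.3; empirical Bayes with a trend and no covariate), and p-values were adjusted over all tested genes with the Benjamini-Hochberg method. A gene passed at an adjusted p under 0.05. The fit was tested on simulated data. Alternatives were a pseudocount of 0.1, no filter, rescaling by median ratios, a replicate block, a covariate for fibroblast markers, and leaving out each library.

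The members and the lists (other family genes, fibril partners, chain synthesis, core protein proteases, ligands and receptors, and markers of fibroblasts, mural, endothelial, macrophage, mesothelial, stellate, tendon and cartilage, and parenchymal cells) were chosen with earlier results of these data known. Named were all members, Lrp1, the 5 tested genes most like Dpt and Dcn, list genes that passed (in a list with none, the 3 of the highest mean level), and neighbors in the genomic clusters. Col1a1, Fn1 and Pecam1 were named outside this rule. Tlr4, Egfr, Sox9, Scx, Tnmd, Mkx, Comp, Acan, Col2a1, Col6a2, Myh11, Esam, Pcolce, Tgfb3, Tgfbr3, Col1a2, Pdgfrb, Rgs5, Kcnj8, Abcc9 and Serpinf1 were named after their values were seen. Dpep1 was not analysed here, and Adgre1 was matched by its Ensembl identifier. Positions came from GENCODE M21 (GRCm38), and promoters from RefSeq (GRCm38.p6), trimmed where the GENCODE gene begins.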

Additional observations from a re-analysis of the deposited data

Results flagged for a closer look

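A library far from the others was looked for in 48 groups of 4 libraries, each the levels of 1 gene or list in WT or in LRP1 KO, and 1 of these groups held one. The summed FPKM of the 10 other genes of the small leucine-rich proteoglycan family was 38.76 in LRP1 KO library 2, against 36.4 to 36.7 in the other 3 LRP1 KO libraries. The gap to the nearest library was 0.875 of the range, above Dixon's critical value for 4 libraries. Nearly all of this sum is Tsku, which was at 36.4 FPKM in LRP1 KO library 2. Chance gives such a library in about 1 in 20 groups, and no single gene of the 9 gave one.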

How the results depend on the processing

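The values of 44 genes were followed under 13 alternatives each. Of the 572 values, 415 stayed the same, 150 lost the threshold, 2 gained it (Dcn and Podn without LRP1 KO replicate 4) and 4 turned direction. Staying the same meant keeping direction and side of the threshold. For Dpt, which has no test, it meant keeping direction and moving by less than the spread between libraries. The remaining 1 value, for Dpt, moved by more than this spread (to -0.55 with the covariate for fibroblast markers). Fmod and Aspn passed in all 8 fits that left out 1 library and under every other alternative except the covariate for fibroblast markers. That covariate turned Lum to 0.28, Bgn to 0.00275 and Prelp to 0.39, and Prelp was also turned by leaving out LRP1 KO replicate 1 (-0.47 to 0.00689 over the fits that left out 1 library). With the covariate, 23 genes passed as lower and 144 as higher (833 and 714 otherwise), and 9 passed as lower by at least 2-fold (57 otherwise). Of the 8 genes beside Dpt 0 passed in either direction (1 and 1 otherwise), and the median of the 9 genes was -0.05. Of the 5 partner lists 1 gene, Lrp1, passed as lower and 0 as higher (5 and 7 otherwise). The 7 genes that were otherwise past the threshold as higher kept their direction. Their log2 differences were 0.42 for Bmp1, 0.62 for Wisp1, 0.75 for Cd44, 0.60 for Mmp13, 0.80 for Tll1, 0.24 for Tgfb2 and 0.20 for Fam20b. Without a filter the lists gave 1 lower and 4 higher. A pseudocount of 0.1 gave 97 genes that passed as lower by at least 2-fold. Leaving out 1 library gave 232 to 1585 genes lower and 280 to 1436 higher, 31 to 121 lower and 102 to 218 higher by 2-fold, 1 to 3 of the 8 genes beside Dpt lower and 1 to 1 higher, and 1 to 14 lower and 2 to 11 higher in the lists, with the highest value each time without LRP1 KO replicate 4. Lrp1, the deleted gene, passed under all 13 alternatives and is counted in each lower value of the lists. With a replicate block 520 genes passed as lower, no call among the 8 genes beside Dpt changed, and Mfap2, Fam20b, B4galt4, Tll1, Met, Pdgfra and Csf1r were no longer past the threshold, while Col6a2, Myh11, Esam and Sox9 as higher and Pcolce, Tgfb3 and Tgfbr3 as lower came past it. The correlation of deviations within a replicate number was 0.141 to 0.340 for 3 numbers and -0.312 for the other, so the numbers were not taken to pair the libraries, although 5 of 8 libraries correlated best with their own number, a hint from the data and not the design. The causes of these shifts were not tested. The depth, and so the counting error of low genes such as Aspn, is unknown.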
